A study of Mus musculus with 12 samples.

Results

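Transcripts of 10 costimulatory and checkpoint genes were followed in sorted mouse microglia: *Cd274*, *Pdcd1lg2*, *Cd80*, *Cd86*, *Cd40*, *Havcr2*, *Lag3*, *Cd200r1*, *Sirpa* and *Cd47*. They were taken by gene symbol, 10 of the 55401 gene identifiers counted in each of 12 RNA-seq libraries. CD45int CD11b+ cells were sorted from the brains of male mice on day 3 after sham surgery or after transient focal cerebral ischemia (tFCI), a stroke model in which the middle cerebral artery is closed, here for 60 min. All mice carried floxed *Hdac3* alleles (Hdac3 loxp/loxp), and HDAC3 is a histone deacetylase. WT mice had intact *Cx3cr1* (Cx3cr1 wt/wt). In HDAC3-miKO mice 1 *Cx3cr1* allele carried tamoxifen-inducible CreER (Cx3cr1 CreER/wt), so that recombination was driven by the *Cx3cr1* promoter and 1 copy of this receptor gene was lost. Tamoxifen was given for 5 days at 6 to 8 weeks of age, and surgery followed at least 1 month later. Whether WT mice also received it is not given in the sources used here. Sham and tFCI mice of either genotype made up 4 groups with 3 biological replicates each, named WT-Sham and WT-tFCI, miKO-Sham and miKO-tFCI. Each library combined cells of 3 to 4 hemispheres, replicate 1 of each group was labelled batch 1, and replicates 2 and 3 were labelled batch 2. Whether replicates of different groups shared a day of surgery or sorting is not stated.

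A T cell needs a signal from its antigen receptor and a further, costimulatory signal, which CD80 and CD86 on an antigen-presenting cell give through CD28. CTLA-4 on T cells binds the same ligands and restrains the response, and PD-L1 (encoded by *Cd274*) and PD-L2 (*Pdcd1lg2*) restrain it through PD-1. CD40 receives CD40 ligand from helper T cells and activates the cell that carries it. Another set of checkpoints acts on myeloid cells themselves. CD47 on neighbouring cells binds SIRPα (*Sirpa*) on a phagocyte and inhibits engulfment, and CD200 on neurons binds the receptor CD200R1 on microglia and keeps them quiet. TIM-3 (*Havcr2*) and LAG-3 (*Lag3*) are best known as inhibitory receptors of exhausted T cells, and *Havcr2* and *Lag3* are also transcribed in resting microglia.

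In GENCODE M21 (GRCm38) *Cd80*, *Cd86*, *Cd200r1* and *Cd47* lie on chromosome 16, 4 of the 10 genes. *Cd274* (chr19:29367455-29388095, plus strand) and *Pdcd1lg2* (chr19:29410919-29471161, plus strand) are neighbours, with 22823 bases between the end of the first and the start of the other. A 300-base promoter window, 250 bases before to 50 after a start, was matched in the RefSeq table (GRCm38.p6) for 5 of the 10: *Cd274*, *Pdcd1lg2*, *Cd80*, *Havcr2* and *Cd47*. The parts of these windows before the start that hold no annotated exon are printed for the 4 of them that passed the filter on low counts, because their transcripts moved in different ways between the groups. For *Cd274* this is the 47 bases that separate its start from *Plgrkt*, a gene on the other strand (chr19:29367391-29367437). The others are chr16:38458683-38458932 for *Cd80*, inside the gene, chr11:46454681-46454930 for *Havcr2*, outside any gene, and chr16:49855404-49855632 for *Cd47*, inside the gene. All are on the plus strand, 5′ to 3′, and capitals mark the only match to a motif searched.
Cd274: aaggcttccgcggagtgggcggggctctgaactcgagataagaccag
Cd80: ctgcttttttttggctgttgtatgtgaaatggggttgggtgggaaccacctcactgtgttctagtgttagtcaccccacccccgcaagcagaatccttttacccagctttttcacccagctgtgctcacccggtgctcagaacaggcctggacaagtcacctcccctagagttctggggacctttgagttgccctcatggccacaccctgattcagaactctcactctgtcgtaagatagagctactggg
Havcr2: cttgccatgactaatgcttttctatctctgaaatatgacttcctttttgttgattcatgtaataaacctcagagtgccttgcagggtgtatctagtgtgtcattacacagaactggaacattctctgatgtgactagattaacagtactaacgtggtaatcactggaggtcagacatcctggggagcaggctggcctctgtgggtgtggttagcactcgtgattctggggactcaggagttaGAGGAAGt
Cd47: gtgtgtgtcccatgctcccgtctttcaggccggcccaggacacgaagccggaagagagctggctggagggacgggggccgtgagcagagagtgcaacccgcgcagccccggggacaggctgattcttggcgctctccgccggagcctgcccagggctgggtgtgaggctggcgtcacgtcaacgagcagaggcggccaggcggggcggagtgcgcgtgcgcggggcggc

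The motifs, searched on both strands of the whole windows, were the GAS element of STAT factors (TTCNNNGAA), the core of the interferon element ISRE (GAAA, any 2 bases and GAAA again), the core of the site of PU.1, the master factor of myeloid cells (GAGGAAG), and the NF-κB site by its name. They were found in 8.30%, 3.44%, 13.6% and 4.51% of the 32851 windows of the table. The *Havcr2* window held the PU.1 core, 8 bases before the start, and the *Pdcd1lg2* window held an NF-κB site on both strands. No match was found in the windows of *Cd274*, *Cd80* and *Cd47*. The windows differed in CpG content: *Cd47* held 35 CpG dinucleotides and *Cd274* 15, whereas *Cd80* and *Havcr2* held 3 each and the median window held 7. A match or its absence in these letters was not related to any factor's binding here.

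Libraries held 7697864 to 9452222 counts on genes. *Hdac3* averaged 41.8 ± 6.02 CPM (counts scaled to the library's TMM-adjusted total; SD, n = 3) in WT-Sham and 23.9 ± 2.64 in miKO-Sham, and 50.2 ± 5.55 in WT-tFCI and 30.7 ± 4.70 in miKO-tFCI. Its reduction passed the test in both (log2 fold change -0.81 ± 0.16 SE, adjusted p = 0.00281, and -0.71 ± 0.16, adjusted p = 0.0127), but in the tFCI groups not without WT-tFCI replicate 2 (adjusted p = 0.0705). The sorted cells carried the microglia genes *P2ry12* (454 to 3399 CPM) and *Tmem119* (422 to 3883 CPM) in every library, while *Cd3e*, the T cell marker, stood at 0 in 7 libraries and never above 18 counts. The 13 markers of T and NK cells summed to 6.72 to 22.7 CPM. *Ly6g* of neutrophils was at 0 in 5 libraries, but the 10 neutrophil markers together summed to 491 to 1359 CPM, and 6 of the 9 tested were called higher in miKO-tFCI vs. WT-tFCI. Replicate 1 of miKO-tFCI stood apart, with 11754 CPM summed over 12 microglia markers against 18409 and 21503 in its group. miKO-Sham replicates 1 and 2, labelled as different batches, were the closest pair of the 12 within-group pairs by their counts (chi-square per degree of freedom 2.82, other pairs 3.65 to 76.6), although by the correlation of log2 CPM (0.976) replicates 2 and 3 of WT-Sham (0.981) and of WT-tFCI (0.980) were closer. They still differed by more than sampling noise and were kept as separate libraries.

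Per kilobase of exon, *Sirpa* was the most abundant of the 10 transcripts in every group and *Pdcd1lg2* the least. In WT-Sham the order of the levels was *Sirpa* (344 ± 44.2 CPM per kb), *Cd86* (85.5 ± 9.42), *Havcr2* (84.5 ± 6.50), *Cd47* (29.3 ± 2.11), *Lag3* (19.8 ± 1.90), *Cd200r1* (6.61 ± 0.646), *Cd80* (3.85 ± 1.18), *Cd274* (2.64 ± 0.476) and *Cd40* (0.481 ± 0.0548). Only *Cd86* and *Havcr2*, and *Cd80* and *Cd274*, overlapped between neighbours in that order. The inhibitory receptors thus ranged from the abundant *Sirpa* to the scarce *Cd200r1*, and the B7 ligands from the abundant *Cd86* to *Cd80*, *Cd274* and *Pdcd1lg2*. *Cd274* moved up from the eighth place to the fifth in miKO-tFCI (8.51 ± 0.221 CPM per kb), where its range overlapped that of *Lag3* (7.02 ± 1.79), which had moved down to the sixth. In that group the neighbours from *Cd274* down to *Cd40* (3.68 ± 1.41) all overlapped.

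**Figure D1:**
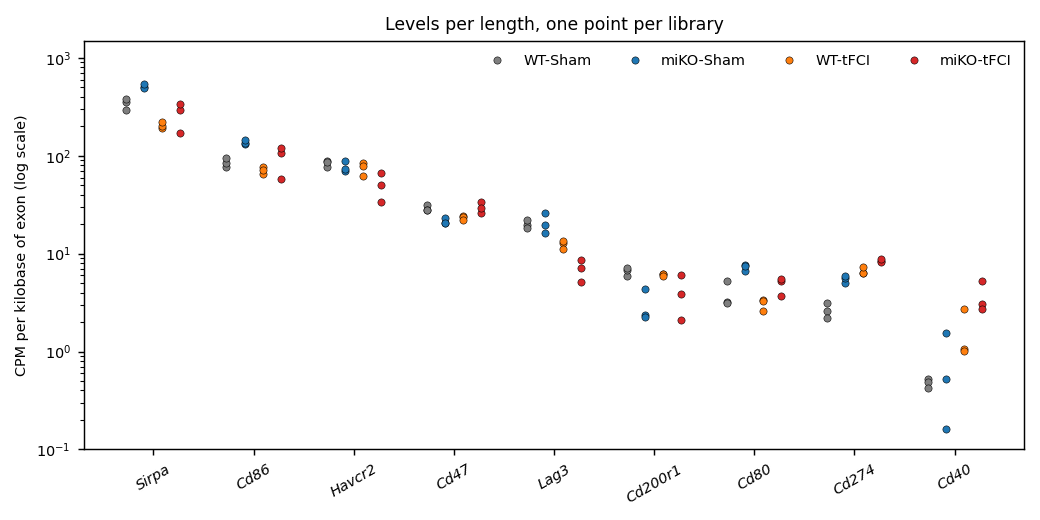
Levels of 9 genes per length, in CPM per kilobase of exon on a log axis, 1 point per library and 1 colour per group, ordered by the WT-Sham mean. *Sirpa* was highest in all groups (344 CPM per kb in WT-Sham) and *Cd40* lowest (0.481); *Pdcd1lg2*, at 0 in several libraries, is left out.

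The study crossed genotype and surgery, and the genes were compared in the 4 pairs of groups and in the interaction of both factors. Counts were fitted with edgeR's quasi-likelihood model over all 12 libraries and all 16451 genes that passed a filter on low counts, with batch as a term. To be called, a gene needed an adjusted p (Benjamini-Hochberg over all genes tested) under 0.05 and a log2 fold change above 0.58 in size, and the interaction was called by its adjusted p alone. Of the 10 genes 9 were tested, and *Pdcd1lg2* was below the filter. In WT-tFCI vs. WT-Sham, 2 of the 9 rose and 2 fell, 44.4% of those tested, where 32.6% of all genes were called (20.9% higher and 11.7% lower). The same contrast between the miKO groups called 6, of which 2 rose and 4 fell (66.7%, against 35.8% of all genes, 21.9% higher and 13.9% lower). Between the Sham groups, 4 were higher and 1 was lower in miKO (55.6%, against 15.4% of all genes, 8.58% higher and 6.8% lower), and between the tFCI groups 2 were lower (22.2%, against 8.79%, 4.08% higher and 4.71% lower). The interaction called 1 of the 9, with a positive sign (11.1%, against 3.82%, 1.25% positive and 2.57% negative). Median log2 fold changes of the 9 were -0.27, -0.57, 0.60, 0.35 and -0.26 in this order, beside -0.02 to 0.04 over all genes. These comparisons share groups and are not separate observations. Called shares over 9 genes are counts of this list and were not tested against other genes.

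**Figure D2:**
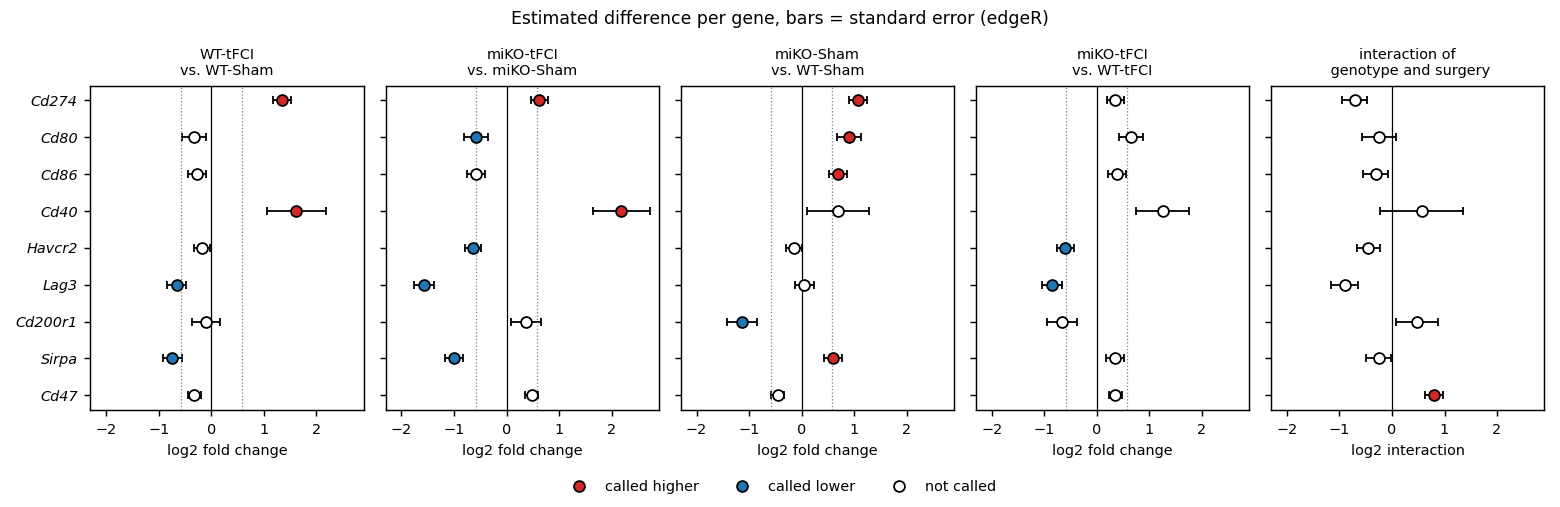
Estimated log2 differences (points) with standard errors (bars) of the 9 genes tested in the 4 comparisons and the interaction. Red points were called higher, blue lower and white not called, and dotted lines mark ±0.58; *Cd274* was called higher in 3 comparisons (1.34, 0.62 and 1.07) and *Lag3* lower in 3 (-0.66, -1.56 and -0.86).

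*Cd274*, the PD-L1 gene, rose with tFCI and was higher in miKO-Sham than in WT-Sham microglia, and the 4 groups stood one above the other without overlap. Its level was 11.4, 9.30 and 8.002 CPM in the WT-Sham libraries (replicates 1 to 3), 18.2, 20.3 and 21.5 in miKO-Sham, 22.9, 22.9 and 26.7 in WT-tFCI, and 30.8, 30.0 and 31.6 in miKO-tFCI. Every miKO-Sham library lay above every WT-Sham library and below every WT-tFCI library. The rise was 2.53-fold in WT-tFCI vs. WT-Sham (log2 fold change 1.34 ± 0.17 SE, adjusted p = 3.28e-05) and 2.09-fold in miKO-Sham vs. WT-Sham (1.07 ± 0.17, adjusted p = 0.000523), and both held under all 20 alternatives. Within batches they were 0.99 and 1.49 for surgery and 0.66 and 1.25 for genotype in batches 1 and 2. With tFCI in miKO mice the rise was 1.54-fold (0.62 ± 0.16, adjusted p = 0.00718). This call was lost to the fold threshold without miKO-Sham replicate 1 (0.53), without miKO-tFCI replicate 3 (0.58) and in batch 2 alone (0.53). Between the tFCI groups *Cd274* was 1.28-fold higher in miKO without passing the test (0.35 ± 0.16, adjusted p = 0.185), although the libraries did not overlap. The smaller rise in miKO than in WT was not established as a difference (interaction -0.71 ± 0.24, adjusted p = 0.122).

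The 3′ neighbour *Pdcd1lg2* was close to absent. It had 0 counts in all 3 WT-Sham libraries, 1, 0 and 0 in miKO-Sham, 3, 7 and 3 in WT-tFCI, and 13, 1 and 3 in miKO-tFCI. Counts were thus found in all 6 tFCI libraries and in 1 of 6 Sham libraries. Against the 3 counts over the group that a count of 0 allows (0.111 CPM), the 13 counts of WT-tFCI, taken as they stand, gave a 4.64-fold higher level. This ratio allows for counting error in WT-Sham only. It covers neither the counting error of the 13 counts nor the spread between libraries. With so few counts *Pdcd1lg2* was not part of the main test, and DESeq2 (adjusted p = 0.0349) and edgeR without the filter (adjusted p = 0.0330) called it higher in WT-tFCI vs. WT-Sham. *A930007I19Rik*, a long RNA on the other strand that overlaps it without shared exonic bases, held 78 to 172 counts per library. A long RNA on the other strand, *AC119228.1*, shares 511 exonic bases (14.1%) with *Cd274*. It held 6 to 14 counts in WT-Sham and 26 to 38, 32 to 58 and 40 to 96 in miKO-Sham, WT-tFCI and miKO-tFCI. How the counting treated strand is not given in the sources used here, and reads of the pair may not be separable.

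**Figure D3:**
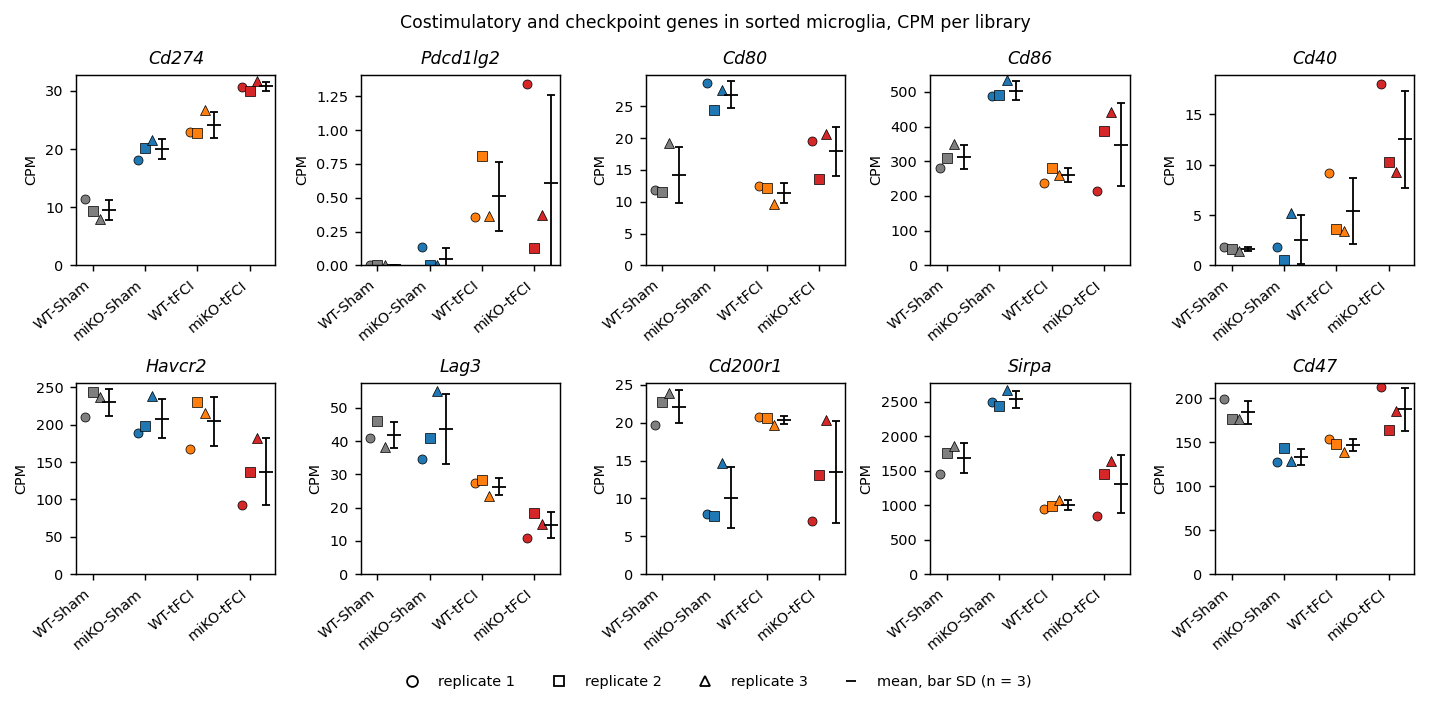
CPM of the 10 genes per library (symbols mark the replicate number, colours the group), with the mean and SD of 3 libraries beside them; SD bars are drawn down to 0 at most. *Cd274* stepped up from WT-Sham to miKO-tFCI (9.57 to 30.8 CPM on average), while *Lag3* was lowest in miKO-tFCI (14.8 CPM).

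*Cd80* and *Cd86*, the B7 ligands of CD28 and CTLA-4, were higher in miKO-Sham than in WT-Sham, and neither rose with tFCI. For *Cd80* the WT-Sham libraries gave 11.9, 11.54 and 19.3 CPM, miKO-Sham 28.6, 24.4 and 27.5, WT-tFCI 12.4, 12.1 and 9.63, and miKO-tFCI 19.5, 13.6 and 20.6. All miKO-Sham values lay above those of the other 3 groups. The difference between the Sham groups was 1.88-fold (log2 fold change 0.91 ± 0.23, adjusted p = 0.0115; 1.25 and 0.79 within batches 1 and 2). It was lost without WT-Sham replicate 1 (adjusted p = 0.0640), without WT-Sham replicate 2 (adjusted p = 0.0667) and in batch 2 alone (adjusted p = 0.0820). With tFCI *Cd80* fell 1.50-fold in miKO mice (-0.58 ± 0.22, adjusted p = 0.0488), a call at the edge of both thresholds that only 9 of 20 alternatives kept. Leaving out any miKO-Sham replicate (adjusted p = 0.139, 0.0543 and 0.105), miKO-tFCI replicate 1 (0.0558) or miKO-tFCI replicate 2 (adjusted p = 0.178) ended it. Neither the change in WT mice (-0.33, adjusted p = 0.287) nor the 1.57-fold difference between the tFCI groups (0.65 ± 0.23, adjusted p = 0.0916) passed, although in the latter the libraries did not overlap and fitting only the groups compared called it (adjusted p = 0.0395).

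*Cd86* was far more abundant and showed the same order of groups. Its level was 280.1, 309.7 and 348.8 CPM in WT-Sham, 486.7, 490.0 and 533.7 in miKO-Sham, 238.8, 279.2 and 261.1 in WT-tFCI, and 214.0, 388.3 and 442.2 in miKO-tFCI. The miKO-Sham libraries were above all others, and replicate 1 of miKO-tFCI lay below all WT-tFCI libraries while replicates 2 and 3 lay above them. *Cd86* was 1.62-fold higher in miKO-Sham vs. WT-Sham (0.69 ± 0.17, adjusted p = 0.00996; 0.80 and 0.64 within batches), a call lost without WT-Sham replicate 2 (adjusted p = 0.0588), without miKO-Sham replicate 1 (adjusted p = 0.0614) and without the batch term (0.0536). In miKO-tFCI vs. miKO-Sham it was 1.49-fold lower with an adjusted p of 0.0140, and its log2 fold change of -0.57 ± 0.17 fell just short of the threshold. There the batches differed, -1.18 in batch 1 and -0.30 in batch 2, and 12 of 20 alternatives called it lower. Between the tFCI groups it was not called (0.39 ± 0.17, adjusted p = 0.167), with -0.16 in batch 1 and 0.62 in batch 2. Without miKO-tFCI replicate 1 it was called higher in miKO-tFCI (0.60, adjusted p = 0.0113).

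*Cd40*, the receptor for CD40 ligand, was scarce in Sham microglia and rose with tFCI in both genotypes. It measured 1.80, 1.68 and 1.44 CPM in WT-Sham, 1.80, 0.555 and 5.25 in miKO-Sham, 9.22, 3.58 and 3.41 in WT-tFCI, and 18.1, 10.3 and 9.27 in miKO-tFCI. All tFCI libraries lay above all WT-Sham libraries, and in both tFCI groups replicate 1 was well above the other replicates. The rise was 4.55-fold in miKO mice (2.18 ± 0.54, adjusted p = 0.00503; 3.16 and 2.26 within batches), lost only in batch 2 alone (adjusted p = 0.0507). In WT mice it was 3.08-fold (1.62 ± 0.57, adjusted p = 0.0351; 2.21 and 1.06 within batches). This call was lost without any 1 WT-Sham library (adjusted p = 0.125, 0.0617 and 0.0814) or any 1 WT-tFCI library (adjusted p = 0.185, 0.0590 and 0.0517), without the batch term and in batch 2 alone. miKO-tFCI was 2.39-fold higher than WT-tFCI without passing the test (1.25 ± 0.51, adjusted p = 0.132). Without the filter (adjusted p = 0.0109), with only the groups compared (adjusted p = 0.00159) and without miKO-Sham replicate 3, the library with 5.25 CPM (1.28, adjusted p = 0.0160), that difference was called, and without that library so was the interaction (2.03, adjusted p = 0.0490). The Sham groups overlapped (0.69 ± 0.60, adjusted p = 0.475), and without the same library the sign turned (-0.75).

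Monocyte markers moved with *Cd40* between Sham and tFCI groups. The summed level of 10 monocyte and macrophage markers was 16.6 to 98.0 CPM in WT-Sham, 76.9 to 134 in miKO-Sham, 411 to 718 in WT-tFCI and 571 to 1141 in miKO-tFCI. Both highest values were those of replicate 1, the library highest in *Cd40* in each tFCI group. *Pdcd1lg2* was highest in replicate 1 of miKO-tFCI as well (13 counts against 1 and 3), but in replicate 2 of WT-tFCI (7 counts against 3 and 3). *Flt3*, a dendritic cell gene, was 11.8 CPM in WT-tFCI replicate 1 against 1.73 and 2.31 in replicates 2 and 3, and 30.7 against 2.51 and 3.34 in miKO-tFCI. *Ccr2* of monocytes was 21.4 against 3.35 and 3.17, and 75.9 against 18.5 and 22.4. Of the monocyte markers 6 of 10 were called higher in WT-tFCI vs. WT-Sham, 7 in miKO-tFCI vs. miKO-Sham and 4 in miKO-tFCI vs. WT-tFCI. The 11 dendritic cell markers did not follow *Flt3* between Sham and tFCI in WT mice. They summed to 264 to 297 CPM in WT-Sham, 60.9 to 96.6 in miKO-Sham, 123 to 277 in WT-tFCI and 125 to 470 in miKO-tFCI, again highest in replicate 1 of both tFCI groups. Of the 9 tested, 3 were called higher and 1 lower in WT-tFCI vs. WT-Sham. Border-associated macrophage markers were lowest in replicate 1 of both tFCI groups, 693 against 949 and 1031 CPM in WT-tFCI, and 957 against 2135 and 2101 in miKO-tFCI. Without tFCI they summed to 572 to 707 CPM in WT-Sham and 1389 to 1662 in miKO-Sham. Of these 8 markers 2 were called higher and none lower in miKO-Sham vs. WT-Sham. With tFCI 2 of them were called higher in WT mice and 6 in miKO mice. In miKO-tFCI vs. WT-tFCI 3 were called higher, and none was called lower in any of these comparisons. Markers that are not of immune cells were also high in replicate 1. The 6 endothelial markers summed to 22.3 to 28.2 CPM in WT-Sham and 11.7 to 15.1 in miKO-Sham, 131 against 42.4 and 42.2 in WT-tFCI, and 199 against 72.9 and 73.5 in miKO-tFCI. The 6 astrocyte markers summed to 264 against 170 and 164 CPM in WT-tFCI, and 525 against 195 and 218 in miKO-tFCI. With tFCI, 4 of the 6 endothelial markers were called higher in WT mice and 6 in miKO mice. In sorted bulk samples a change in the cells collected and a change in RNA per cell cannot be told apart, and the part of these cells in the levels of *Cd40* and *Pdcd1lg2* was not tested. Their part in the levels of *Cd274*, *Cd80*, *Cd86* and *Sirpa*, the genes called higher in miKO-Sham vs. WT-Sham, was not tested either.

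**Figure D4:**
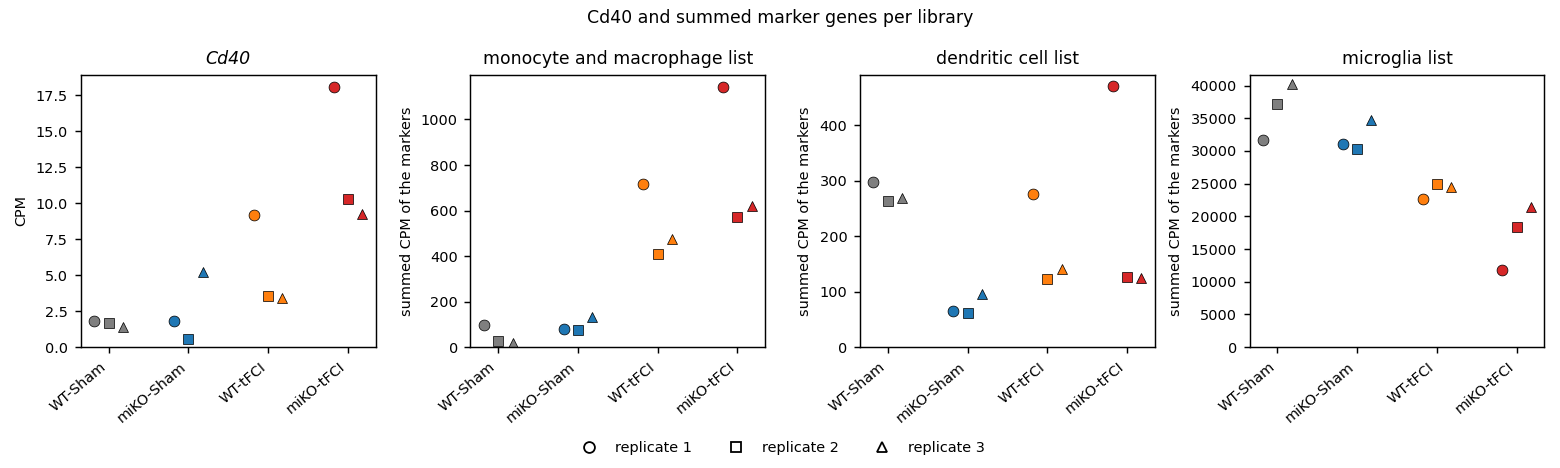
*Cd40* (CPM) beside the summed CPM of marker genes of monocytes and macrophages, dendritic cells and microglia, 1 symbol per library. Replicate 1 (circles) of both tFCI groups was highest in *Cd40* (9.22 and 18.1 CPM) and in the first pair of marker sums, and replicate 1 of miKO-tFCI was lowest in microglia markers (11754 CPM).

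*Lag3* fell with tFCI in both genotypes and was lowest in miKO-tFCI. Its level was 41.1, 46.2 and 38.3 CPM in WT-Sham, 34.6, 40.9 and 55.2 in miKO-Sham, 27.3, 28.4 and 23.4 in WT-tFCI, and 10.8, 18.3 and 15.2 in miKO-tFCI. The Sham groups overlapped, all WT-tFCI libraries lay below them, and all miKO-tFCI libraries lay below WT-tFCI. The fall was 1.58-fold in WT (-0.66 ± 0.18, adjusted p = 0.0108) and 2.96-fold in miKO mice (-1.56 ± 0.19, adjusted p = 2.14e-05), and both calls were kept in all 20 alternatives. Within batches 1 and 2 the values were -0.59 and -0.70 in WT, and -1.65 and -1.50 in miKO. In miKO-tFCI vs. WT-tFCI *Lag3* was 1.81-fold lower (-0.86 ± 0.19, adjusted p = 0.0123; -1.31 and -0.62 within batches), and only batch 2 alone ended this call (adjusted p = 0.0680). The Sham groups gave 0.05 ± 0.18 (adjusted p = 0.898). The larger fall in miKO mice was below the threshold as an interaction (-0.90 ± 0.26, adjusted p = 0.0787), and DESeq2 (adjusted p = 0.0471) and edgeR without the filter (adjusted p = 0.0210) called it.

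*Havcr2*, the TIM-3 gene, shared the fall in miKO mice but did not pass the test in WT mice. The libraries held 209.9, 243.1 and 236.9 CPM in WT-Sham, 188.3, 198.2 and 238.2 in miKO-Sham, 167.3, 230.3 and 215.7 in WT-tFCI, and 92.3, 137.1 and 181.8 in miKO-tFCI. Those of miKO-tFCI lay below both Sham groups, whereas replicate 3 of miKO-tFCI lay above replicate 1 of WT-tFCI. *Havcr2* was 1.55-fold lower in miKO-tFCI vs. miKO-Sham (-0.63 ± 0.16, adjusted p = 0.00465; -1.03 and -0.46 within batches) and 1.51-fold lower in miKO-tFCI vs. WT-tFCI (-0.60 ± 0.16, adjusted p = 0.0255; -0.86 and -0.50 within batches). The first call was lost to the fold threshold without miKO-Sham replicate 1 (-0.56), without miKO-tFCI replicate 1 (-0.52), in batch 2 alone (-0.48) and with at least 10 counts required in every library (-0.57). The other was lost without WT-tFCI replicate 2 (-0.57, adjusted p = 0.106), WT-tFCI replicate 3 (-0.62, adjusted p = 0.0863), miKO-tFCI replicate 1 (-0.47, adjusted p = 0.0905) or miKO-tFCI replicate 2 (-0.55, adjusted p = 0.0841), in batch 2 alone (-0.53, adjusted p = 0.0568), without the batch term (-0.58, adjusted p = 0.161) and with the stricter filter (-0.57). WT-tFCI vs. WT-Sham gave -0.18 ± 0.15 (adjusted p = 0.374), and miKO-Sham vs. WT-Sham gave -0.14 ± 0.15 (adjusted p = 0.579). The difference between both surgery effects did not pass the test (-0.45 ± 0.22, adjusted p = 0.303). With surgery and between the tFCI groups, the sum of 12 microglia markers moved in the same direction as *Lag3* and *Havcr2*. It was 31650 to 40258 CPM in WT-Sham, 30234 to 34809 in miKO-Sham, 22664 to 25012 in WT-tFCI and 11754 to 21503 in miKO-tFCI. Of the 12, 5 were called lower in miKO-tFCI vs. WT-tFCI, 7 with surgery in WT mice and 11 with surgery in miKO mice. In miKO-Sham vs. WT-Sham 2 were called higher and 4 lower, and there neither *Lag3* nor *Havcr2* was called. The part of the shift in these markers in the levels of *Lag3* and *Havcr2*, and in the fall of *Sirpa* with surgery given next to *Cd47*, was not tested.

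*Cd200r1*, the receptor for neuronal CD200, was the one gene of the 9 called lower in miKO-Sham vs. WT-Sham. It measured 19.7, 22.7 and 23.9 CPM in WT-Sham, 7.91, 7.63 and 14.7 in miKO-Sham, 20.7, 20.7 and 19.7 in WT-tFCI, and 7.02, 13.1 and 20.4 in miKO-tFCI. WT values were close to each other with and without tFCI, and the miKO groups spread widely, with replicate 3 high in both. In Sham mice *Cd200r1* was 2.21-fold lower in miKO (-1.14 ± 0.28, adjusted p = 0.0109; -1.29 and -1.12 within batches). Without miKO-Sham replicate 2, a library of the pair closest by chi-square, the value was -0.92 (adjusted p = 0.0535). Between the tFCI groups the difference was -0.66 ± 0.28 (adjusted p = 0.147; -1.53 and -0.30 within batches), and it was called without miKO-tFCI replicate 3 (-1.01, adjusted p = 0.0462) and without the filter (-0.69, adjusted p = 0.0422). Surgery gave -0.10 ± 0.27 in WT (adjusted p = 0.793) and 0.38 ± 0.29 in miKO mice (adjusted p = 0.312).

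*Sirpa* and *Cd47* encode the receptor and the ligand of the phagocytosis checkpoint. *Sirpa* fell with tFCI in both genotypes. Its level was 1448, 1757 and 1866 CPM in WT-Sham, 2497, 2437 and 2677 in miKO-Sham, 946.7, 987 and 1083 in WT-tFCI, and 837, 1450.2 and 1643 in miKO-tFCI. All miKO-Sham libraries lay above WT-Sham and all WT-tFCI libraries below, and replicate 1 of miKO-tFCI was the lowest of the 12. Levels after tFCI were 0.599 of the Sham level in WT (-0.74 ± 0.17, adjusted p = 0.00363; -0.61 and -0.81 within batches) and 0.502 of it in miKO mice (-0.99 ± 0.17, adjusted p = 0.000403; -1.58 and -0.73 within batches), both kept in all 20 alternatives. miKO-Sham was 1.52-fold above WT-Sham (0.60 ± 0.17, adjusted p = 0.0244; 0.79 and 0.50 within batches). That call lay close to the fold threshold, and it was lost without any 1 WT-Sham library (adjusted p = 0.0585, 0.0960 and 0.0693), without miKO-Sham replicate 1 (0.46, adjusted p = 0.127), in batch 2 alone (0.49, adjusted p = 0.0220), without the batch term (adjusted p = 0.0948) and with at least 10 counts required in every library (0.57). The tFCI groups overlapped (0.35 ± 0.17, adjusted p = 0.219), with -0.18 in batch 1 and 0.58 in batch 2.

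*Cd47* was the only one of the 9 whose response to surgery differed between the genotypes by the test. It held 199.4, 176.2 and 176.8 CPM in WT-Sham, 127.7, 144.1 and 129.4 in miKO-Sham, 153.6, 148.5 and 139.3 in WT-tFCI, and 212.9, 164.1 and 185.6 in miKO-tFCI. It was thus lower after tFCI in every WT library and higher after tFCI in every miKO library. The WT change was -0.32 ± 0.12 (adjusted p = 0.0523) and the miKO change 0.48 ± 0.12 (adjusted p = 0.00640), the latter with an adjusted p under 0.05 and a change below the fold threshold. Their difference was 0.80 ± 0.18 on the log2 scale (adjusted p = 0.0196), 1.11 within batch 1 and 0.65 within batch 2. This call held in 12 of 19 alternatives and was lost without WT-Sham replicate 2 (adjusted p = 0.0608) or 3 (0.0579), without miKO-Sham replicate 1 (0.0710), without any 1 WT-tFCI library (0.0654, 0.0525 and 0.0713), and in batch 2 alone (0.62, adjusted p = 0.107). In miKO-Sham vs. WT-Sham *Cd47* was 1.37-fold lower (-0.46 ± 0.12, adjusted p = 0.0190), again below the fold threshold. miKO-tFCI vs. WT-tFCI gave 0.35 ± 0.12 (adjusted p = 0.0935) with libraries that did not overlap. The highest *Cd47* level (212.9 CPM) was that of miKO-tFCI replicate 1, the library lowest in microglia markers (11754 CPM). The part of the cells collected in the levels of *Cd47* and in its interaction was not tested.

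By CPM alone, 6 of the 9 genes had libraries of WT-tFCI and WT-Sham that did not overlap, where 49.8% of all genes did. The counts were 8 of 9 for the miKO groups (48.2% of all genes), 6 for the Sham groups (33.2%) and 5 for the tFCI groups (22.9%).

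Of 107 further genes of costimulation and inhibition in 8 lists, 79 were tested. With tFCI in WT mice 27 rose and 9 fell (of all genes, 20.9% and 11.7%), and in miKO mice 25 rose and 23 fell (21.9% and 13.9%). miKO-Sham was higher than WT-Sham in 16 and lower in 7 (8.58% and 6.8%), and miKO-tFCI was higher than WT-tFCI in 11 and lower in 10 (4.08% and 4.71%). The counts of each list below, and of the markers above, are read against these shares of all genes. Of the 8 lists, other checkpoint receptors and ligands held the most rises, with 11 of 16 tested higher after tFCI in WT mice, 10 higher and 3 lower in miKO mice, 9 higher and 2 lower in miKO-Sham vs. WT-Sham, and 5 higher and 2 lower between the tFCI groups. Median log2 fold changes of that list were 1.07, 1.22, 1.28 and 0.57.

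**Figure D5:**
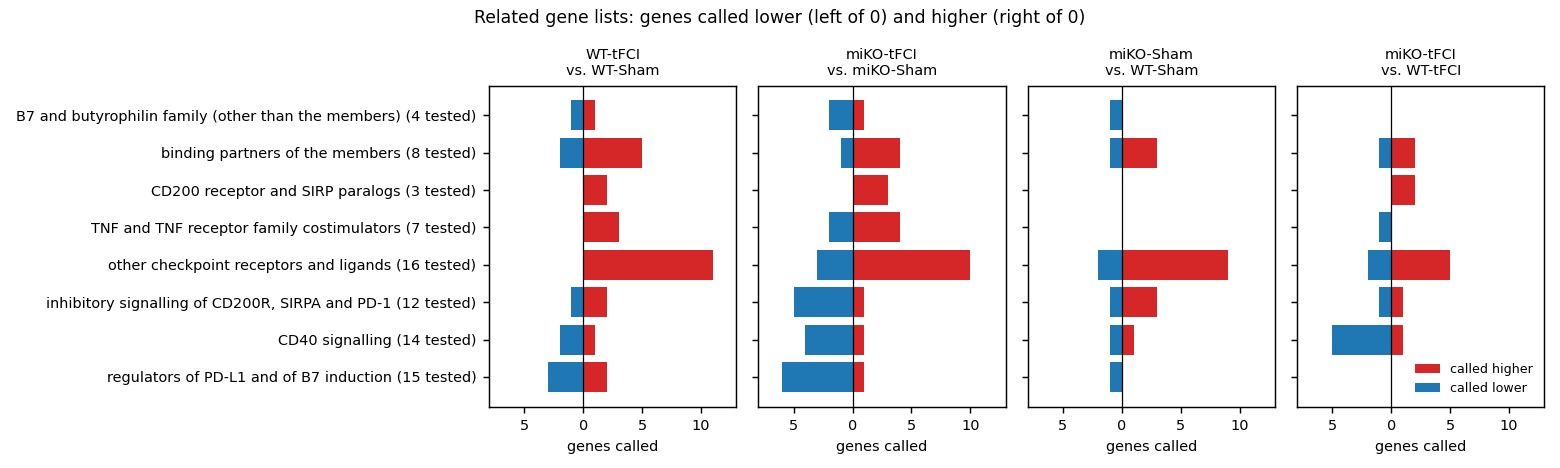
Number of genes called higher (red, right of 0) and lower (blue, left of 0) in 8 lists of related genes, in the 4 comparisons. The list of other checkpoint receptors and ligands had the most genes called higher, 11 of 16 tested in WT-tFCI vs. WT-Sham.

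*Pirb*, an inhibitory receptor for MHC class I in that list, was called higher in all 4 comparisons, from 25.5 ± 1.29 CPM in WT-Sham to 49.4 ± 7.14 in miKO-Sham, 46.0 ± 7.87 in WT-tFCI and 86.0 ± 10.7 in miKO-tFCI. *Lilr4b* averaged 5.89, 30.7, 141 and 342 CPM in this order, and *Lilrb4a*, a near-identical copy whose reads may be split between both, 3.73, 35.3, 70.8 and 91.9. Between the tFCI groups the libraries of both genes overlapped. *Lilrb4a* was not called there (0.35 ± 0.33, adjusted p = 0.541). The *Lilr4b* call (1.27 ± 0.24, adjusted p = 0.00478) was lost without the batch term (adjusted p = 0.0782). *Slamf7*, a self-binding receptor of the SLAM family, was 1.98 CPM in WT-Sham and 30.3 in miKO-tFCI, and it was also called higher in all 4. Its rise with tFCI in WT mice was lost without WT-Sham replicate 3 (adjusted p = 0.0951) or WT-tFCI replicate 1 (adjusted p = 0.100). Its difference between the Sham groups was lost without WT-Sham replicate 2 or 3 (adjusted p = 0.0635 and 0.127), without miKO-Sham replicate 2 (adjusted p = 0.14) and with only the groups compared (adjusted p = 0.0823). *Pvr*, the ligand of TIGIT and CD226, rose with surgery in both genotypes (1.14 ± 0.19 and 1.32 ± 0.21) and was lower in miKO in both conditions (-1.01 ± 0.21 and -0.83 ± 0.19). The last call was lost without WT-tFCI replicate 2 or 3 (adjusted p = 0.0822 and 0.0782) or miKO-tFCI replicate 2 or 3 (adjusted p = 0.0545 and 0.0764) and without the batch term (adjusted p = 0.0572). *Cd84* and *Cd48*, further SLAM receptors, were higher in miKO-Sham vs. WT-Sham (1.91 ± 0.24 and 1.22 ± 0.18). *Lair1*, a collagen receptor, was higher there as well (0.84 ± 0.17).

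Among 8 tested binding partners of the 10 gene products, 5 rose and 2 fell in WT-tFCI vs. WT-Sham. *Lgals3*, a galectin that binds LAG-3, rose from 8.37 ± 5.90 CPM in WT-Sham to 348 ± 83.2 in WT-tFCI, and from 36.5 ± 0.874 in miKO-Sham to 1488 ± 63.5 in miKO-tFCI, while *Lag3* fell with surgery. *Lgals9*, a ligand of TIM-3, was 2.31-fold higher in miKO-Sham vs. WT-Sham (919 ± 37.2 against 398 ± 3.44 CPM). *Ceacam1*, also a TIM-3 ligand, was lower in miKO in both conditions (-2.76 ± 0.26 and -1.20 ± 0.25). *Thbs1*, encoding the CD47 ligand thrombospondin-1, rose with surgery (2.76 ± 0.48 in WT, 4.57 ± 0.50 in miKO). The size of its rise differed between batches 1 and 2, with 4.30 and 1.76 in WT and 6.09 and 3.87 in miKO. WT-tFCI libraries ranged from 20.5 to 132 CPM. *Rgmb*, a ligand of PD-L2, fell (-0.90 ± 0.14 and -1.06 ± 0.14). *Pdcd1*, which encodes PD-1 and was named after its values were seen, averaged 3.38 ± 1.17 CPM in WT-Sham, 15.4 ± 2.22 in miKO-Sham, 27.6 ± 2.98 in WT-tFCI and 18.9 ± 2.35 in miKO-tFCI. It rose with tFCI in WT (3.02 ± 0.24) and was higher in miKO-Sham vs. WT-Sham (2.17 ± 0.24).

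Of the 4 tested genes of the B7 and butyrophilin family, the abundant checkpoint gene *Vsir* (VISTA) fell with surgery in both genotypes (-1.25 ± 0.15 in WT and -1.59 ± 0.15 in miKO). It averaged 1999 CPM in WT-Sham and 839 in WT-tFCI. *Icosl*, the ICOS ligand gene, fell in miKO mice (-1.10 ± 0.15). Of the paralogs of *Sirpa* and *Cd200r1*, *Sirpb1b* and *Sirpb1c* were at or near 0 in Sham libraries and were called higher with tFCI in both genotypes, and *Cd200r4* rose in miKO mice (3.73 ± 0.65). In WT mice the *Sirpb1b* libraries overlapped (0 to 0.240 CPM in WT-Sham, 0.115 to 2.75 in WT-tFCI). That call was lost without WT-tFCI replicate 1 (adjusted p = 0.195), without any 1 WT-Sham library (adjusted p = 0.0507, 0.0511 and 0.0546), without the batch term (0.0556) and in batch 2 alone (adjusted p = 0.0998). The WT call of *Sirpb1c* was lost without WT-Sham replicate 1 (adjusted p = 0.0502), without WT-tFCI replicate 1 (adjusted p = 0.0525) and in batch 2 alone (adjusted p = 0.142). *Sirpb1b* and *Sirpb1c* are near-identical, so reads may be split between them. Among 7 tested genes of the TNF and TNF receptor families, *Tnfsf9* (4-1BBL) rose in WT from 3.58 ± 1.17 to 82.5 ± 28.0 CPM and in miKO from 7.01 ± 1.28 to 21.8 ± 4.67, and was lower in miKO-tFCI vs. WT-tFCI (-1.92 ± 0.27).

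Of 14 tested genes of CD40 signalling, 1 was higher and 5 were lower in miKO-tFCI vs. WT-tFCI, among the latter *Nfkb1* (-0.72 ± 0.14) and *Tnfaip3* (-1.21 ± 0.21), which encodes the inhibitor A20. *Traf1*, an adaptor of TNF receptors, was the one higher (1.49 ± 0.43), with overlapping libraries and a call lost without any 1 WT-tFCI library (adjusted p = 0.0703, 0.161 and 0.146), miKO-tFCI replicate 1 or 3 (adjusted p = 0.381 and 0.0706) or the batch term (adjusted p = 0.204). Of 12 genes of inhibitory signalling, *Ptpn6*, encoding the phosphatase SHP-1 that SIRPα recruits, was higher in miKO-Sham vs. WT-Sham (0.87 ± 0.15) and fell with tFCI in miKO mice (-0.92 ± 0.15). *Dok2*, an adaptor of CD200R1, was higher in miKO in both conditions (3.20 ± 0.33 and 0.98 ± 0.28), whereas *Cd200r1* was not called higher in either. The *Dok2* difference between the tFCI groups was 0.14 in batch 1 and 1.30 in batch 2. Its call was lost without any 1 WT-tFCI library (adjusted p = 0.0665, 0.160 and 0.137), miKO-tFCI replicate 2 or 3 (adjusted p = 0.11 and 0.132) or the batch term (adjusted p = 0.0790). Of 15 regulators of PD-L1 and B7 induction, 2 rose and 3 fell with surgery in WT mice, and 1 rose and 6 fell in miKO mice. In WT mice this is close to the share called among all genes (32.6%), and it is no result about the regulators. *Cmtm6*, which protects PD-L1 from degradation, fell with surgery in both genotypes (-1.25 ± 0.23 and -1.21 ± 0.23), as did *Ifngr1*, an interferon-γ receptor chain (-1.16 ± 0.17 and -1.10 ± 0.17), while *Cd274* rose.

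As a description over 12 libraries that share groups and batches, the genes most like each of the 9 tested genes were sought among 15727 genes by Pearson's correlation of batch-adjusted log2 CPM. They were *Cd300lf* for *Cd274* (0.982), *Tmem50b* for *Cd80* (0.950), *Daglb* for *Cd86* (0.983), *Snx7* for *Cd40* (0.971), *Slc7a7* for *Havcr2* (0.969), the long RNA *A830008E24Rik* for *Lag3* (0.985), *Man1a* for *Cd200r1* (0.960), *L3mbtl2* for *Sirpa* (0.992) and *Fancf* for *Cd47* (0.937). The second genes were *Zfand4*, *Morf4l1*, *Cyfip1*, *Vcam1*, *Ajm1*, *Itpr2*, *Sfmbt1*, *Mknk1* and *Abcd3* in the same order.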

How the data were processed

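RNA was measured in 12 libraries of flow-sorted microglia (SMART-Seq v4 kit, paired-end reads). The authors trimmed, aligned and counted the reads, and the processing notes name FastQC 0.11.9, Trim Galore, HISAT2 2.2.1, SAMtools, HTSeq 1.99.2 and the builds mm10 and GRCm38.p6. The deposited values are raw counts per gene without normalization, and 30.7% to 38.5% of the reads in a library lay on genes. The closing lines for reads on no gene were left out of library sizes. GENCODE M21 matched 55141 of 55401 identifiers, without version numbers.

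Counts were analysed with edgeR 4.0.16 in R 4.3.3: filterByExpr by group, TMM factors (0.864 to 1.11), and a quasi-likelihood fit of group and batch over 12 libraries, with 2-sided F tests. SE was the log2 fold change divided by the square root of F. DESeq2 1.42.0, other filters, no batch term, a replicate block, only the groups compared, only batch 2 and leaving out each library were alternatives. Levels are CPM on TMM-scaled totals. Replicates were separate pools of cells, and p-values measure the spread between these pools.

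Same-numbered libraries of miKO-tFCI and WT-tFCI deviated together (correlations 0.666, 0.334 and 0.324), but only replicate 1 matched its own number best. The labels place same-numbered libraries in the same batch, and after adjustment for batch the correlations were 0.151, 0.0716 and -0.0269. Replicate 1 was the only batch 1 library of each group, so the adjustment itself removes the deviation that replicate 1 shares between groups. The adjusted values therefore cannot show whether a pairing by number remained. No comparison was paired in the main fit, which held batch as a term. Replicate number entered only in the replicate block.

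The 10 genes and the lists of related genes and markers were chosen with earlier results of these data known. Genes set to be named were *Hdac3*, the 10 genes, the 3 most abundant of each list, list genes called in at least 3 of 4 comparisons, and the 2 most correlated genes per member. Marker genes and overlapping genes on the other strand were named as well. Not all genes that met this rule are described, among those left out *Map3k14*, *Batf3*, *Cd24a*, *Irf8* and *Inpp5d*. The choice among them followed no stated rule.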

Additional observations from a re-analysis of the deposited data

Results flagged for a closer look

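The interaction of genotype and surgery passed the edgeR test (adjusted p under 0.05) for *Cd47* and for 11 of the 79 tested genes of the related lists (2 positive and 9 negative; of all genes 3.82% passed), so that their response to tFCI differed between miKO and WT mice. It is the difference of both log2 fold changes, miKO minus WT. For *Cd47* it was 0.80, with a lower level after tFCI in WT libraries and a higher one in miKO libraries.

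Positive values were also found for *Ildr2* (2.31), a B7-like gene that rose with tFCI in both genotypes from a lower miKO-Sham level, and for the TIM-3 ligand *Ceacam1* (1.56), which was called lower with tFCI in WT and higher in miKO. The *Ceacam1* interaction was kept in 11 of 19 alternatives. It was lost without WT-Sham replicate 2 or 3 (adjusted p = 0.0611 and 0.0840), miKO-Sham replicate 1 (adjusted p = 0.0833) or any 1 WT-tFCI library (adjusted p = 0.0824, 0.0681 and 0.0556), without the batch term (adjusted p = 0.0590) and in batch 2 alone (adjusted p = 0.0950). Its miKO libraries overlapped, with 1.67 in batch 1 and 0.18 in batch 2, and without miKO-tFCI replicate 1 the rise was 0.23 (adjusted p = 0.402). Values were negative for *Lgals9* (-1.09), *Tnfsf9* (-2.89), *Pilra* (-2.15), *Lilrb4a* (-3.03), *Cd244a* (-2.02), *Ptpn6* (-0.80), *Dok2* (-2.22) and *Pdcd1* (-2.72), and for *Myc* (-1.005), a regulator of PD-L1 transcription named after its values were seen and kept in 14 of 19 alternatives. Of these, *Pilra*, an inhibitory receptor, rose with tFCI in WT and fell in miKO mice. The *Ptpn6* value was at the threshold (adjusted p = 0.0498) and was kept in 5 of 19 alternatives. *Tnfsf9*, *Lilrb4a* and *Cd244a* were called higher with tFCI in both genotypes, by less in miKO. For *Lilrb4a* the miKO libraries overlapped, with -0.19 in batch 1 and 1.71 in batch 2. That call was lost without miKO-Sham replicate 2 or 3 (adjusted p = 0.0843 and 0.11), miKO-tFCI replicate 3 (adjusted p = 0.138) or the batch term (adjusted p = 0.0529). The interaction of *Ildr2*, *Lilrb4a* and *Cd244a* was lost without the batch term (adjusted p = 0.182, 0.0931 and 0.0598).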

How the results depend on the processing

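Of 886 values of single genes under other settings, 803 kept their direction and side of the threshold, 56 lost a call, 22 gained one and 5 turned their sign. None of those 5 was called in the main analysis. They were *Sirpa* in the interaction with only batch 2 (0.048), *Lag3* between the Sham groups without WT-Sham replicate 3 (-0.08) or miKO-Sham replicate 3 (-0.12; up to 0.15 without another library), *Cd40* between the Sham groups without miKO-Sham replicate 3 (-0.75, range up to 1.15) and *Cd200r1* in miKO-tFCI vs. miKO-Sham without miKO-tFCI replicate 3 (-0.0054, range up to 0.68). The causes of these changes were not tested.

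The number of the 9 genes called was 4 for surgery in WT mice, 6 for surgery in miKO mice, 5 between the Sham groups, 2 between the tFCI groups and 1 in the interaction. Without 1 library it ranged over 3 to 4, 3 to 7, 2 to 5, 1 to 3 and 0 to 2. With only batch 2, where each group has 2 libraries, it was 2, 3, 0 and 0 in the last 4 of them. DESeq2 called 2 in the interaction. Without the filter 4 were called in miKO-tFCI vs. WT-tFCI and 2 in the interaction. A minimum of 10 counts in every library gave 3 in miKO-tFCI vs. miKO-Sham and 1 in miKO-tFCI vs. WT-tFCI, and left *Cd40* out. Without the batch term the counts were 3 in miKO-Sham vs. WT-Sham and 1 in miKO-tFCI vs. WT-tFCI, and fitting only the groups compared gave 4 in the latter. The replicate block changed no call of the 9 genes.

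Over all genes, the interaction called 629, against 978 by DESeq2, 1272 without the filter, 303 without the batch term and 281 to 883 without 1 library. In miKO-tFCI vs. WT-tFCI 1446 were called, against 2193 without the filter, 701 without the batch term, 2535 with only the groups compared and 616 to 1667 without 1 library. In miKO-tFCI vs. miKO-Sham 5887 were called, against 3744 with at least 10 counts in every library. *Pdcd1lg2* held at most 13 counts in a library, too few for the filter.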
